A study of Homo sapiens with 4 samples.

Results

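The messages of 10 alpha and beta tubulin genes, 4 alpha (TUBA1A, TUBA1B, TUBA1C, TUBA4A) and 6 beta (TUBB, TUBB2A, TUBB2B, TUBB3, TUBB4B, TUBB6), were followed in input and polyribosome-bound RNA of an esophageal cancer cell line. They were chosen by gene name, and each had 1 row among the 17064 rows of the deposited table. RNA sequencing was done on KYSE-150, an established cell line from a squamous cell carcinoma of the esophagus. The 4 libraries, 1 per group, were polyribosome and input RNA of cells with a stable short hairpin RNA against NSUN6 and polyribosome and input RNA of control cells with normal NSUN6. The NSUN6 enzyme methylates cytosines in RNA to 5-methylcytosine. All cells received cycloheximide, which halts ribosomes on their messages, and polyribosomes were pelleted through sucrose after a part of the lysate had been set aside as input. The labels do not say whether the hairpin cells were 1 clone or a pool.

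Alpha and beta tubulin proteins pair into the dimers from which microtubules are built. The new chains need the chaperones prefoldin and CCT and a set of tubulin cofactors to fold and to join. In mammalian cells, tubulin messages are also known for control during translation, called autoregulation. When free dimers are in excess, the factor TTC5 binds the first residues of a tubulin chain as it leaves the ribosome and, through the adaptor SCAPER, brings the CCR4-NOT deadenylase to the message, which is then degraded.

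The first 30 coding bases of each gene are shown because they carry the codons for the residues read in autoregulation. They come from GENCODE release 29, and the capitals mark codons 1 to 4, start codon included.
TUBA1A: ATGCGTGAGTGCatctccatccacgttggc
TUBA1B: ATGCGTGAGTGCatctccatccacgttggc
TUBA1C: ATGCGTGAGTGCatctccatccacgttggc
TUBA4A: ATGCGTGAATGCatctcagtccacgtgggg
TUBB: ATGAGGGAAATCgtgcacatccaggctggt
TUBB2A: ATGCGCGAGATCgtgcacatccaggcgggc
TUBB2B: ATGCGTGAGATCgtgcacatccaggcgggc
TUBB3: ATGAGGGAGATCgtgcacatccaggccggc
TUBB4B: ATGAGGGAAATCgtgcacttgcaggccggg
TUBB6: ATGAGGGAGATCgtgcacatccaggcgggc

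TUBA1A, TUBA1B and TUBA1C were identical over these 30 bases. The capitals took 6 different forms over the 10 genes, which within a class differed only by synonymous codons. All alpha genes encode Met-Arg-Glu-Cys there and all beta genes Met-Arg-Glu-Ile. TUBA1A, TUBA1B and TUBA1C shared 1 form, TUBB and TUBB4B another, TUBB3 and TUBB6 yet another, while TUBA4A, TUBB2A and TUBB2B each had their own. On GRCh38 the stretch lies in 1 exon at chr6:30720507-30720536 (plus strand) for TUBB, chr6:3157434-3157463 (minus strand) for TUBB2A, chr6:3227514-3227543 (minus strand) for TUBB2B and chr16:89923402-89923431 (plus strand) for TUBB3. It is likewise in 1 exon at chr9:137241361-137241390 (plus strand) for TUBB4B and chr18:12308293-12308322 (plus strand) for TUBB6. In the 4 alpha genes it is split over 2 exons, with its ends at chr12:49186807-49188979 (minus strand) for TUBA1A and chr12:49129696-49131300 (minus strand) for TUBA1B. The ends were chr12:49265182-49269491 (plus strand) for TUBA1C and chr2:219252204-219253858 (minus strand) for TUBA4A. These positions are not on hg19, the build named in the submitters' processing notes.

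The similarity of the genes bears on how well reads could be divided among them. Coding identity was 97.2% between TUBA1A and TUBA1B, 96.8% between TUBA1B and TUBA1C and 98.2% between TUBB2A and TUBB2B. Between an alpha and a beta gene it was 52.9% to 55.9%. Of the 50-base windows of 1 transcript per gene, those also found in a transcript of another gene made up 41.1% for TUBA1A, 62.7% for TUBA1B, 25.1% for TUBA1C, 65.5% for TUBB2A and 52.2% for TUBB2B. TUBB had 18.2% such windows, mostly in the pseudogene TUBBP1. TUBB3 had 89.4%, nearly all in a gene model named AC092143.1. TUBB4B (9.89%), TUBA4A (5.25%) and TUBB6 (0.993%) were the most distinct. How the authors' counting treated shared reads is not given in the sources used here, so the split among TUBA1A, TUBA1B and TUBA1C, that between TUBB2A and TUBB2B, and the level of TUBB3 are uncertain. Sums over all alpha and over all beta genes are given beside single genes for this reason. Reads shared with genes outside the 10 can still alter the sums.

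**Figure D1:**
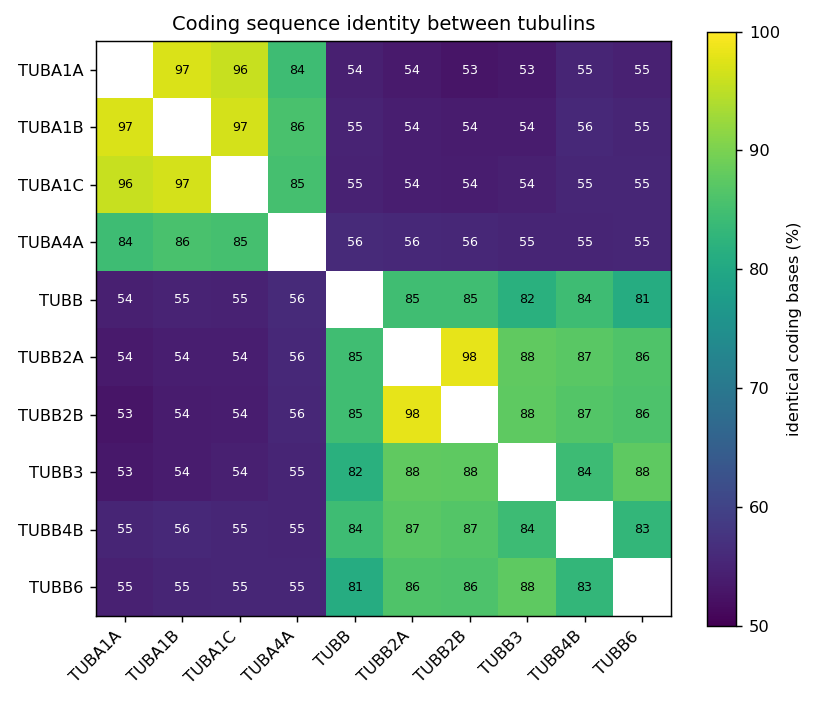
Share of identical bases between the coding sequences of each pair of tubulin genes, in percent, from 1 GENCODE 29 transcript per gene. TUBA1A, TUBA1B and TUBA1C form 1 block and TUBB2A and TUBB2B the closest beta pair, at 98.2%.

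Values are FPKM as deposited, which correct fragment numbers for transcript length and for all mapped fragments, and library depth is unknown. With 1 library per group there is no spread between replicates to set a difference against, and p-values were not computed. Differences are of log2(FPKM + 1), a scale on which changes of low genes come out too small. Features with a mean of at least 5 FPKM, 7379 in all, served as background. NSUN6 was at 0.38 FPKM in knockdown-labelled and 10.13 FPKM in control polyribosome RNA, with 3.83 FPKM in knockdown-labelled and 8.85 FPKM in control input. The table closes with another line of column names. It gives the knockdown pair as K30 with a hairpin against Mettl1 and the control pair as K150 with a hairpin against GFP. It also puts input before polyribosome in the knockdown pair, whereas the header has polyribosome first. Since the header and the sample labels match, the header was followed, the pair is called knockdown-labelled, and the exchanged order was run as an alternative. An effect of the hairpin and a difference between cell lines cannot be told apart here, nor, in bulk RNA, can a different mix of cells and a different amount of RNA per cell. The 10 squamous epithelium markers summed to 608 to 662 FPKM in the knockdown-labelled and 1922 to 2417 FPKM in the control libraries. KRT5, a basal keratin, made up most of that gap, at 0.70 and 0.45 FPKM in knockdown-labelled and 1162 and 906 FPKM in control polyribosome RNA and input. In 7 of the 10 both knockdown-labelled values lay below both control values, and in 0 above. The exceptions were SFN, KRT6A and EPCAM, with EPCAM input at 186 FPKM in knockdown-labelled and 66.4 FPKM in control cells. The share of all features whose libraries separate in this way was not counted, here or for the tubulins below. Of 14 fibroblast, endothelial and immune markers in the table, 1 passed the filter, CD68, a lysosomal protein of macrophages also made by other cells. It was at 6.38 and 5.90 FPKM in knockdown-labelled and 69.3 and 71.2 FPKM in control polyribosome RNA and input, while the other 13 summed to 2.11 to 3.31 FPKM in the knockdown-labelled and 3.35 to 3.77 FPKM in the control libraries. Their part in the tubulin results was not tested.

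TUBA1B, TUBB, TUBA1C and TUBB4B were among the 178 most abundant of the 17064 features in every library, while TUBB2A ranked from 2943 to 4915 and TUBB2B from 7826 to 11426. The 10 genes took 0.822% of all FPKM in knockdown-labelled polyribosome RNA, 0.969% in knockdown-labelled input, 1.12% in control polyribosome RNA and 1.01% in control input. TUBA1B, the main ubiquitous alpha tubulin, was at 1419 FPKM in knockdown-labelled polyribosome RNA, 1507 FPKM in knockdown-labelled input, 2567 FPKM in control polyribosome RNA and 2565 FPKM in control input. Both knockdown-labelled values lay below both control values. In control polyribosome RNA only 11 of the 17064 features were higher than TUBA1B, which had rank 12.

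TUBA1C, another widely expressed alpha tubulin, was at 749 FPKM in knockdown-labelled polyribosome RNA, 662 FPKM in knockdown-labelled input, 789 FPKM in control polyribosome RNA and 712 FPKM in control input. The knockdown-labelled and control ranges overlapped. TUBA4A, an alpha tubulin whose gene does not encode the C-terminal tyrosine that other alpha tubulins carry, was at 139 and 145 FPKM in knockdown-labelled polyribosome RNA and input and at 134 and 102 FPKM in control polyribosome RNA and input. Its lowest value was in control input. TUBA1A, best known from developing neurons, was at 69.7 and 66.2 FPKM in knockdown-labelled polyribosome RNA and input and at 20.7 and 17.0 FPKM in control polyribosome RNA and input. Both knockdown-labelled values were above both control values, a separation whose share over all features was not counted.

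Among beta tubulins, TUBB, the main form in dividing cells, was at 1672 FPKM in knockdown-labelled polyribosome RNA, 1910 FPKM in knockdown-labelled input, 2011 FPKM in control polyribosome RNA and 1826 FPKM in control input. Its knockdown-labelled and control values overlapped. TUBB4B, a ubiquitous form also found in cilia, was at 913 and 762 FPKM in knockdown-labelled polyribosome RNA and input and at 585 and 447 FPKM in control polyribosome RNA and input. For this gene the knockdown-labelled values were both above the control values.

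TUBB3, the neuronal class III form that many carcinomas also express, was at 126 and 91.6 FPKM in knockdown-labelled polyribosome RNA and input and at 112 and 98.4 FPKM in control polyribosome RNA and input. Here the fraction separated the libraries more than the cells did, with both polyribosome values above both inputs. TUBB6, a divergent beta tubulin, was at 47.6 and 41.2 FPKM in knockdown-labelled polyribosome RNA and input and at 102 and 83.9 FPKM in control polyribosome RNA and input. TUBB2A, abundant in brain, was at 27.2 and 24.1 FPKM in knockdown-labelled polyribosome RNA and input and at 15.2 and 13.4 FPKM in control polyribosome RNA and input. TUBB6 was thus lower, and TUBB2A higher, in both knockdown-labelled libraries than in both control libraries. Without the share of all features, the separations of TUBA1B, TUBA1A, TUBB4B, TUBB6 and TUBB2A cannot be called particular to tubulins. Over the 7379 features, polyribosome and input values correlated at 0.98 in control and 0.83 in knockdown-labelled cells. The inputs of the different cells correlated at 0.73. TUBB2B, a neuronal form, was at 1.74 and 1.70 FPKM in knockdown-labelled and at 0.69 and 0.46 FPKM in control polyribosome RNA and input. It alone did not reach a mean of 5 FPKM and is left out of the counts below, which therefore cover 9 of the 10 genes. The next lowest, TUBB2A, had a mean of 20.0 FPKM.

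By mean FPKM over the 4 libraries the order was TUBA1B, TUBB, TUBA1C, TUBB4B, TUBA4A, TUBB3, TUBB6, TUBA1A, TUBB2A and TUBB2B. The ranges over libraries of TUBA1B and TUBB overlapped, and so did those of TUBA1C and TUBB4B and those of each neighbouring pair from TUBA4A to TUBB2A. Between TUBB and TUBA1C, between TUBB4B and TUBA4A and between TUBB2A and TUBB2B the ranges did not overlap. Neuron genes other than tubulins were low, INA excepted. Of 9 neuron markers in the table, SNAP25 was at 0 in all libraries and the sum of all was 5.25 FPKM in knockdown-labelled and 3.53 FPKM in control polyribosome RNA, and 57.4 FPKM in knockdown-labelled and 3.16 FPKM in control input. Of the 57.4 FPKM, 51.6 belonged to INA, the neurofilament protein alpha-internexin.

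**Figure D2:**
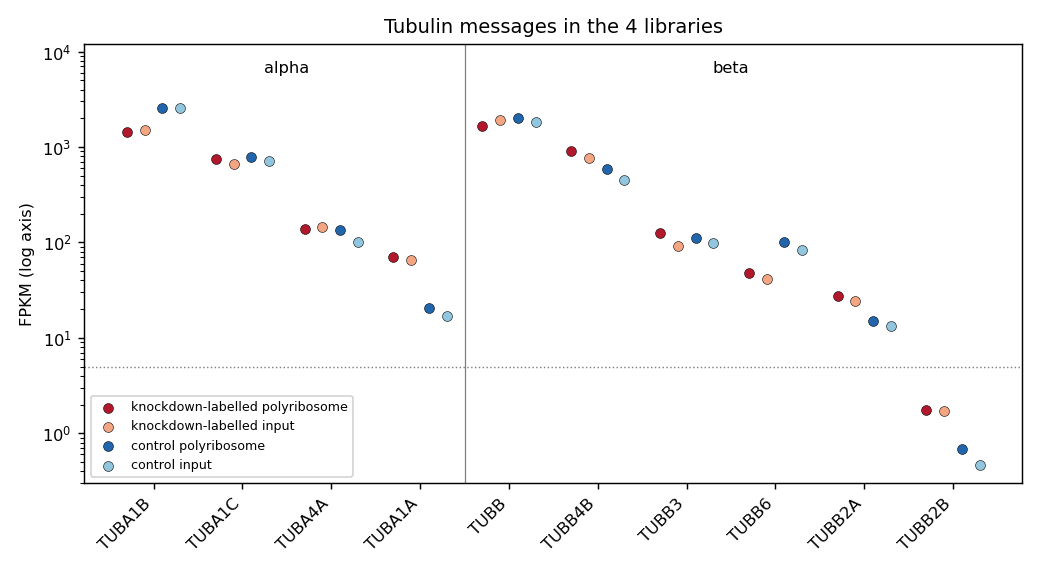
FPKM (log axis) of each tubulin gene in the 4 libraries, 1 point per library, alpha genes left of the vertical line and beta genes right, each by falling mean, with the filter at 5 FPKM dotted. TUBA1B and TUBB lead their classes, TUBA1A spans 17.0 to 69.7 FPKM, and TUBB2B lies below the filter in every library.

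The make-up of both classes differed between the cells. TUBA1B gave 59.7% of alpha FPKM in knockdown-labelled and 73.1% in control polyribosome RNA, and 63.3% in knockdown-labelled and 75.5% in control input. TUBA1C gave 31.5% in knockdown-labelled and 22.5% in control polyribosome RNA, and 27.8% in knockdown-labelled and 21.0% in control input. TUBA1A gave 2.93% in knockdown-labelled and 0.589% in control polyribosome RNA, and 2.78% in knockdown-labelled and 0.501% in control input. TUBA4A gave 5.84% in knockdown-labelled and 3.81% in control polyribosome RNA, and 6.08% in knockdown-labelled and 2.99% in control input. The main alpha gene thus held a smaller share, and the other 3 a larger share, in both knockdown-labelled libraries.

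In the beta class too the main gene held a smaller share in both knockdown-labelled libraries. TUBB gave 60.0% of beta FPKM in knockdown-labelled and 71.2% in control polyribosome RNA, and 67.5% in knockdown-labelled and 74.0% in control input. TUBB4B gave 32.8% in knockdown-labelled and 20.7% in control polyribosome RNA, and 26.9% in knockdown-labelled and 18.1% in control input. TUBB6 gave 1.71% in knockdown-labelled and 3.60% in control polyribosome RNA, and 1.46% in knockdown-labelled and 3.40% in control input. Shares within a class and a library do not depend on the scaling of the library. They do depend on how shared reads were divided, which is unknown, and may depend on base composition. TUBB4B had 59.4% GC and TUBB 52.2%. The difference of TUBB4B in polyribosome RNA turned direction when a trend on GC content and length, described further on, was removed. Shares were not recomputed under that setting.

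**Figure D3:**
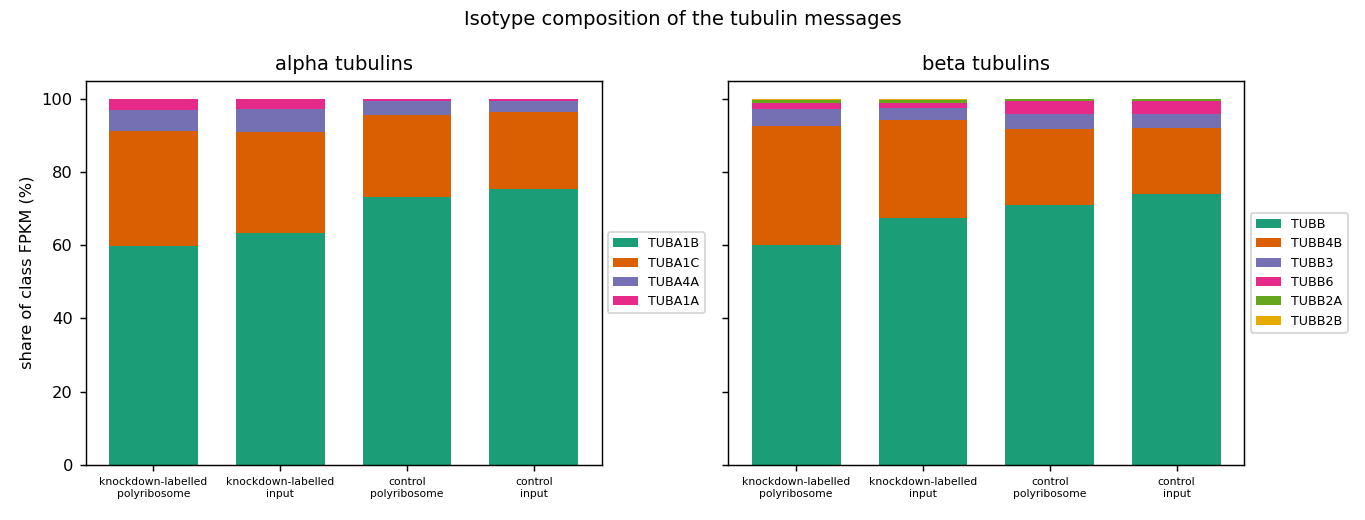
Share of the summed alpha (left) and beta (right) tubulin FPKM held by each gene, in percent, 1 bar per library. TUBA1B holds 59.7% and 63.3% of alpha FPKM in the knockdown-labelled bars and 73.1% and 75.5% in the control bars, and TUBB4B holds 32.8% and 26.9% of beta FPKM against 20.7% and 18.1%.

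Summed alpha tubulin was at 2377 FPKM in knockdown-labelled and 3510 FPKM in control polyribosome RNA, with 2380 FPKM in knockdown-labelled and 3395 FPKM in control input. Summed beta tubulin was at 2787 FPKM in knockdown-labelled and 2825 FPKM in control polyribosome RNA, with 2831 FPKM in knockdown-labelled and 2469 FPKM in control input. Alpha over beta FPKM was 0.853 in knockdown-labelled polyribosome RNA, 0.841 in knockdown-labelled input, 1.24 in control polyribosome RNA and 1.37 in control input. Beta messages therefore outweighed alpha messages in both knockdown-labelled libraries, and alpha outweighed beta in both control libraries.

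The comparison of inputs asked how tubulin message levels differed between knockdown-labelled and control cells. TUBA1A was higher, by 1.90 on the log2 scale (3.73-fold), at the 95.9th percentile of all 7379 features. TUBB6 was lower by 2-fold, at -1.01. The other 7 genes past the filter were within 2-fold, from -0.77 for TUBA1B to 0.80 for TUBB2A. TUBB4B was at 0.77, TUBA4A at 0.51, TUBB at 0.06, and TUBA1C and TUBB3 were both at -0.10. In all, 1 of 9 genes was at least 2-fold higher and 1 of 9 at least 2-fold lower, beside 13.2% and 14.4% of all features. The median was 0.06 for the 9 genes and 0.01 for all features. Summed alpha tubulin differed by -0.51 and summed beta tubulin by 0.20. The place of TUBB6 past the limit rested on the settings, since it was at -0.94 with 5 FPKM added in place of 1 and at -0.91 with libraries rescaled to a common total. It was at -0.81 with the knockdown columns exchanged, where TUBB4B was at 1.03.

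The comparison of polyribosome RNA asked the same of messages bound to ribosomes. TUBA1A was higher by 1.70 (3.26-fold) and TUBB6 lower, at -1.08. TUBA1B was at -0.85, TUBB at -0.27, TUBA1C at -0.07, TUBA4A at 0.05, TUBB3 at 0.17, TUBB4B at 0.64 and TUBB2A at 0.80. So 1 of 9 genes was at least 2-fold higher and 1 of 9 at least 2-fold lower, beside 16.7% and 32.9% of all features. The median was 0.05 for the tubulins and -0.28 for all features. Relative to that shift of all features TUBB2A was at 1.09 and TUBB6 at -0.80, so that 2 genes were then 2-fold higher and 0 lower, beside 22.8% and 27.0% of all features. With the trend on GC content and transcript length removed, described further on, the tubulin median was -0.32 and that of all features -0.38, and 7 of 9 tubulins were below 0 in place of 4. TUBB3 was then at -0.86, TUBA4A at -0.43, TUBB4B at -0.15, TUBB2A at 0.02 and TUBB6 at -1.85. The directions of TUBA4A, TUBB3 and TUBB4B in polyribosome RNA thus turned with this setting. Summed alpha tubulin differed by -0.56 and summed beta tubulin by -0.02. Polyribosome and input values come from the same cells and do not check each other as replicates would.

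The next comparison set polyribosome RNA against input within the same cells, which is the translation efficiency of the study design. In control cells the 9 genes lay from 0.00 for TUBA1B to 0.40 for TUBA4A. TUBB4B was at 0.39, TUBB6 and TUBA1A at 0.27, TUBB3 at 0.18, TUBB2A at 0.17, TUBA1C at 0.15 and TUBB at 0.14. Of the 9 genes 0 were 2-fold apart in either direction, beside 0.0% of all features higher and 0.759% lower. The tubulin median was 0.18 and that of all features 0.03. TUBA4A stood at the 94.2nd and TUBB4B at the 93.8th percentile of all features, and TUBA1B at the 45.8th. Centred on all features, TUBA1B was at -0.03 and the other 8 remained above 0.

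In knockdown-labelled cells the 9 genes ranged from -0.19 for TUBB to 0.45 for TUBB3. TUBB4B was at 0.26, TUBB6 at 0.20, TUBA1C at 0.18, TUBB2A at 0.17, TUBA1A at 0.07, TUBA4A at -0.06 and TUBA1B at -0.09. None (0 of 9) was 2-fold apart, beside 8.62% of all features higher and 28.8% lower. The tubulins thus lay between the 44.8th and the 68.7th percentile, near the middle of a broad distribution whose 25th and 75th percentiles were -1.24 and 0.57. Their median was 0.17, with 6 of 9 above 0. It was -0.05 with libraries rescaled to a common total and, by construction, -0.17 with the columns exchanged. With the GC and length trend removed it was -0.61, beside -0.37 for all features, and 8 of 9 were below 0. TUBB2A was then at -0.76, TUBB3 at -0.71, TUBB4B and TUBB6 at -0.67 and TUBA1C at 0.20, so the direction between fractions in these cells rested on the setting for most of the 9.

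The comparison for which the series was designed, the change in translation efficiency, gave small values for each tubulin. TUBB3 was at 0.27, TUBA1C at 0.03, TUBB2A at 0.00, TUBB6 at -0.07, TUBA1B at -0.09, TUBB4B at -0.13, TUBA1A at -0.20, TUBB at -0.33 and TUBA4A at -0.45. Of the 9 genes 0 changed 2-fold, beside 12.0% of all features higher and 30.1% lower. The tubulin median was -0.09 and that of all features -0.12. Only 29.7% of all features had a change as small as or smaller than the largest of the 9, that of TUBA4A, in either direction. Summed alpha tubulin was at -0.05 and summed beta tubulin at -0.22. The authors' deposited table gives efficiency ratios of 0.961 for TUBA4A, 0.875 for TUBB, 0.942 for TUBA1B and 1.35 for TUBB3 in knockdown-labelled cells, against 1.30, 1.10, 1.00 and 1.13 in control cells.

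**Figure D4:**
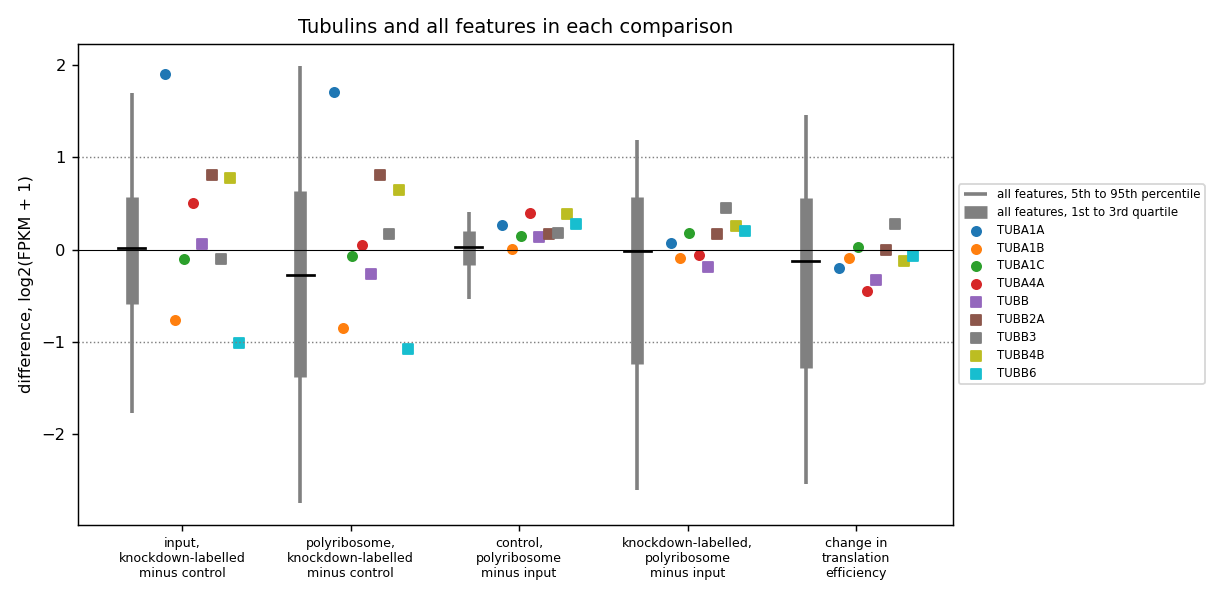
Difference of log2(FPKM + 1) for each tubulin past the filter (circles alpha, squares beta) in 5 comparisons, beside grey bars for all 7379 features (thin, 5th to 95th percentile; thick, quartiles; black line, median), with 2-fold limits dotted. TUBA1A (1.90 and 1.70) and TUBB6 (-1.01 and -1.08) pass a limit between cells, and 0 of 9 tubulins do between fractions.

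Base composition moved with the change in efficiency over the whole table. With features split by GC content into 3 bins of equal size, its median was -1.67 in the low, -0.16 in the middle and 0.61 in the high bin. Polyribosome minus input had bin medians of -1.68, -0.06 and 0.65 in knockdown-labelled cells, and 0.01, 0.07 and 0.01 in control cells. Between cells the bin medians were 0.12, 0.01 and -0.09 in input, and -1.56, -0.19 and 0.58 in polyribosome RNA. The trend was thus steep only in comparisons that use the knockdown-labelled polyribosome library. All efficiency changes given here rest on that library. The 9 tubulin transcripts had 51.6% to 62.6% GC with a median of 56.3%, and all features had a median of 52.3%. With a trend on GC content and transcript length removed across features, the tubulin median was -0.87 and that of all features -0.40. TUBB4B was then at -1.00 and just past 2-fold lower, TUBA4A at -0.93, TUBB6 at -0.88, TUBB3 and TUBB2A at -0.87, TUBB at -0.31, TUBA1B at -0.23, TUBA1A at -0.22 and TUBA1C at 0.13. The trend was removed so that the mean of all features stayed, and their median moved from -0.12 to -0.40. Without allowance for that shift, the small size of the tubulin changes as deposited did not hold for TUBA4A, TUBB2A, TUBB3, TUBB4B and TUBB6 under this setting. The part of base composition in the values was not tested further.

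Other tubulin rows were low. Outside the 10 genes, 10 more of the alpha, beta, delta and epsilon classes were in the table, and only TUBE1, the epsilon tubulin of centrioles, passed the filter. It was at 1.92 FPKM in knockdown-labelled and 8.41 FPKM in control polyribosome RNA, with 5.76 FPKM in knockdown-labelled and 10.6 FPKM in control input. TUBA3C, TUBA3D, TUBA3E, TUBB1 and TUBB4A were under 1 FPKM in all libraries, and TUBA8, TUBAL3, TUBB8 and TUBD1 had means of 1.00, 0.82, 2.44 and 2.82 FPKM. TUBG1, the gamma tubulin that nucleates microtubules, was at 121 FPKM in knockdown-labelled and 173 FPKM in control polyribosome RNA, whereas input had 99.3 FPKM in knockdown-labelled and 145 FPKM in control cells, an efficiency change of 0.02. In its ring complex, 2 of 8 genes had an efficiency change at least 2-fold higher (MZT2B at 1.65 and MZT2A at 1.36) and 3 of 8 at least 2-fold lower (among them TUBGCP3 at -1.24 and MZT1 at -1.23), beside 12.0% and 30.1% of all features. The median was 0.15. With the GC and length trend removed it was -0.37, with 1 higher and 0 lower, beside 5.18% and 17.7% of all features. With the knockdown columns exchanged it was -0.50, with 2 higher and 2 lower, beside 27.8% and 6.29%. MZT2A and MZT2B are near-identical copies, so the split between them is uncertain.

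Among the chaperones that fold tubulin, CCT subunits had the lower values. CCT, the chaperonin that folds tubulin and actin, had 6 of 8 subunits at least 2-fold lower in efficiency and 0 higher, beside 30.1% and 12.0% of all features, with a median of -2.31. CCT8 was at -3.60, CCT6A at -3.02, CCT3 at -0.81 and CCT7 at -0.61. CCT8 had 12.2 FPKM in knockdown-labelled and 159 FPKM in control polyribosome RNA, and 113 FPKM in knockdown-labelled and 113 FPKM in control input. Prefoldin, which hands new chains to CCT, had 2 of 6 subunits at least 2-fold lower, VBP1 at -3.08 and PFDN4 at -1.95, and 0 higher, a share near that of all features. PFDN6 was at -0.35 and PFDN5 at 0.00, and the median was -0.80.

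The CCT transcripts had 43.1% to 51.8% GC. With the GC and length trend removed the CCT median was -1.36 with 5 of 8 lower, beside 17.7% of all features, that of prefoldin -0.78 with 2 of 6 lower, and that of the tubulins -0.87. With the knockdown columns exchanged the CCT median was 1.32, with 5 of 8 at least 2-fold higher, beside 27.8% of all features. The prefoldin median was then 0.04, with 2 of 6 higher and 0 lower, and the tubulin median -0.34. The direction of the CCT and prefoldin values thus turned with the order of the columns. No test of the difference between these lists was made.

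Of the tubulin cofactors, which assemble the dimer after CCT, 1 of 6 was at least 2-fold lower in efficiency and 0 were higher, beside 30.1% and 12.0% of all features. With the columns exchanged 1 was higher and 0 lower, beside 27.8% and 6.29% of all features, and the median was -0.44 in place of 0.09. With the GC and length trend removed the median was -0.55, with 0 higher and 1 lower, beside 5.18% and 17.7%. As deposited, the lower gene was TBCE, at -2.21, with 3.47 FPKM in knockdown-labelled and 33.2 FPKM in control polyribosome RNA and 15.5 FPKM in knockdown-labelled and 26.3 FPKM in control input. TBCA, which captures beta tubulin, was at -0.91, TBCB, a cofactor of alpha tubulin, at 0.04, TBCD at 0.15, TBCC at 0.36 and ARL2, the small GTPase that works with TBCD, at 0.38. In input TBCC was at 25.0 FPKM in knockdown-labelled and 7.01 FPKM in control cells, a log2 difference of 1.70. TBCEL, with a mean of 1.41 FPKM, was under the filter.

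Among the genes of autoregulation, TTC5 was at 6.32 FPKM in knockdown-labelled and 10.4 FPKM in control polyribosome RNA, with 5.98 FPKM in knockdown-labelled and 10.1 FPKM in control input. Its input difference was -0.67 and its efficiency change 0.03. SCAPER was under the filter, at 0.04 and 0.44 FPKM in knockdown-labelled and 0.59 and 1.04 FPKM in control polyribosome RNA and input. Over TTC5 and the CCR4-NOT subunits past the filter, 6 of 10 had an efficiency change at least 2-fold lower and 0 higher, beside 30.1% and 12.0% of all features, with a median of -1.58. CNOT1, the scaffold, was at -2.93, CNOT2 at -2.64, CNOT10 at -2.30, CNOT11, which SCAPER binds, at -1.99, the deadenylase CNOT6 at -1.65 and the deadenylase CNOT8 at -1.51. CNOT9, listed under its older symbol RQCD1, was at -0.87, CNOT7 at -0.05 and CNOT3 at 0.25, and CNOT6L was under the filter. These transcripts had a median GC content of 44.7%, and with the trend removed the median was -0.48 over the 9 with a matched transcript, 4 of them lower and 2 higher, beside 17.7% and 5.18% of all features. With the columns exchanged the median of the 10 was 1.31, with 7 higher and 0 lower, beside 27.8% and 6.29%.

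Genes that act on microtubules varied more. Of 12 microtubule-associated and severing proteins past the filter, 8 had an efficiency change at least 2-fold lower and 1 at least 2-fold higher. These stood beside 30.1% and 12.0% of all features, and the median was -1.49. MAPRE1, which tracks growing plus ends, was at -2.43 and TPX2, a spindle assembly factor, at -2.34, whereas MAP7D1 was at 0.82. Of 8 tubulin-modifying enzymes, 2 were at least 2-fold higher, the deglutamylase AGBL5 at 2.59 and the deacetylase SIRT2 at 1.09, and 1 was lower, TTLL5, a polyglutamylase, at -1.86, beside 12.0% and 30.1% of all features. ATAT1, the alpha tubulin acetyltransferase, was at 6.30 FPKM in knockdown-labelled and 34.5 FPKM in control input, a log2 difference of -2.28. With the columns exchanged the medians of these lists were 0.93 and -0.16, in place of -1.49 and 0.52. Then 6 of 12 were higher and 2 lower, and 1 of 8 higher and 0 lower, beside 27.8% and 6.29% of all features. With the GC and length trend removed the medians were -1.17 and 0.25. Under that setting 0 of 12 were higher and 7 lower, and 2 of 8 higher and 1 lower, beside 5.18% and 17.7%.

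**Figure D5:**
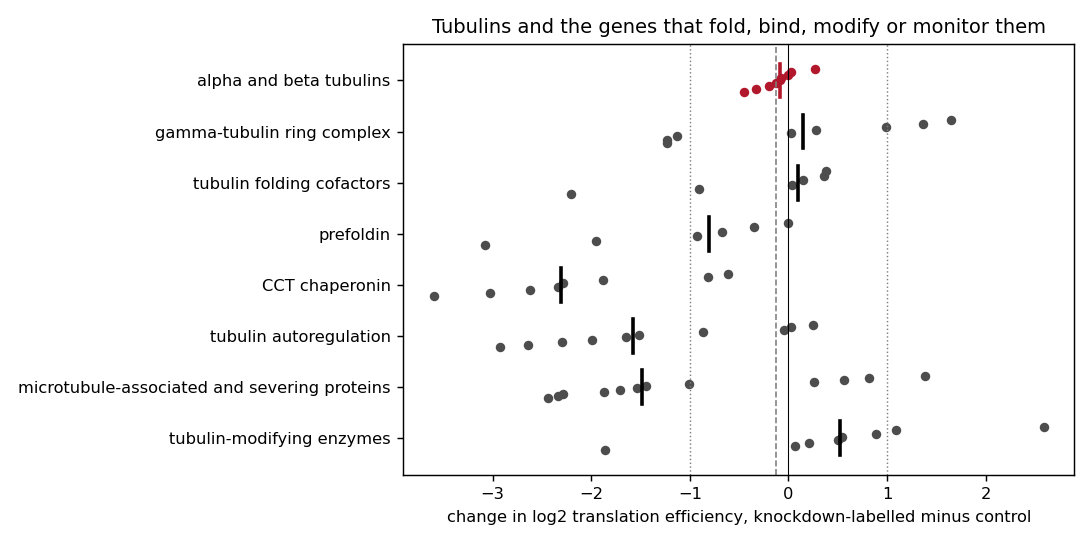
Change in log2 translation efficiency, knockdown-labelled minus control, for each gene past the filter in 8 lists (points; bars are list medians), with the median of all features dashed and 2-fold limits dotted. The tubulins lie from -0.45 to 0.27, while the CCT subunits lie from -3.60 to -0.61.

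The genes nearest in pattern were sought for TUBA1B and TUBB among 5624 genes averaging 10 FPKM or more, by Euclidean distance of log2(FPKM + 1) centred over the 4 libraries. The nearest to TUBA1B were THOC5 (distance 0.098), ITFG2 (0.101) and TMEM14C (0.103). The nearest to TUBB were CPT2 (0.061), PELO (0.064) and SMARCD1 (0.064). With 4 libraries, close patterns are common, and no other tubulin was among them.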

How the data were processed

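RNA of 4 libraries, 1 per group, was measured by sequencing after a stranded mRNA library preparation, per the labels' protocols. The authors deposited 1 table of FPKM per gene symbol. TopHat, hg19 and GRCh37 are named in the submitters' processing notes, while the counting tool, the annotation and the handling of shared reads are not stated there. The authors also deposited an efficiency ratio, which the values show to be polyribosome over input FPKM with 5 added to each (largest gap 5e-10). Sample titles gave the groups, and sample descriptions gave the columns.

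Differences of log2(FPKM + 1) were computed in Python 3.11.15 with pandas 2.3.3, for features with a mean of at least 5 FPKM, and those at least 2-fold apart were counted. The depth is unknown, since the lowest value above 0 was 0.01 FPKM, the rounding limit. The code was tested on simulated data. GC content and length came from 1 GENCODE 29 transcript per gene for 7166 of the 7379 features (97.1%), and for 9 of 9 tubulins past the filter. Coding sequences were aligned globally with Biopython 1.88. The genes named are all tubulins, NSUN6, all cofactor and autoregulation genes and up to 2 highest and 2 lowest members of other lists in a comparison. SNAP25 was named outside this rule, after its values were seen. The members and lists were chosen with earlier results of these data known. Alternatives were other pseudocounts, filters and scalings, removal of the GC and length trend, and exchange of the knockdown columns. A value of 1 listed gene is not reported here.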

Additional observations from a re-analysis of the deposited data

Results flagged for a closer look

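In 3 tubulins polyribosome RNA was above input in control cells and below it in knockdown-labelled cells. The change in log2 translation efficiency was -0.45 for TUBA4A, -0.33 for TUBB and -0.088 for TUBA1B. With 1 library per group the difference was not tested. For TUBA1B the excess over input in control cells was only 0.0014 on the log2 scale, from 2567 against 2565 FPKM. Its 2 control values were thus nearly equal. The median polyribosome minus input value of all features was 0.03 for the control pair and -0.02 for the knockdown-labelled pair. The share of all features with such opposite signs was not counted. How many tubulins had opposite signs rested on the scaling. With libraries rescaled to a common total there were 7, TUBA1A, TUBA1C, TUBB2A and TUBB6 being added. Centred on the median of all features there were 2, since TUBA1B was at -0.03 in control cells. With the GC and length trend removed there were 7, without TUBA1B and TUBA1C. Exchanging the knockdown columns turns the sign of each polyribosome minus input value in these cells. It therefore gave 6 by construction, without the 3 named above. With that exchange the change in efficiency was -0.34 for TUBA4A, 0.05 for TUBB and 0.09 for TUBA1B.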

How the results depend on the processing

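No paired analysis was possible because each group has 1 library and the labels carry no replicate numbers. Over 536 recomputed values under 8 alternatives, 516 kept their side of the 2-fold limits or their count, and 0 values past a limit changed sign. The changed filters could not alter values of single genes or sums, so those were bound to stay the same. Only TUBA1A and TUBB6 between cells were past a limit at first, so the 0 covers no other gene. Of 351 recomputed values of single tubulins 44 changed sign, 17 of them with the knockdown columns exchanged, 12 with the GC and length trend removed, 8 with rescaled libraries and 6 with centring. The exchange turns the sign of each polyribosome minus input difference in knockdown-labelled cells by construction, and the changed filters could turn none. TUBA1A was at least 2-fold higher between cells under all 8 alternatives. The count of tubulins at least 2-fold lower in input was 1 and became 0 with 5 FPKM added, with libraries rescaled to a total of 1000000, with the GC and length trend removed and with the knockdown columns exchanged, beside 10.3%, 13.1%, 14.1% and 31.8% of all features. In the last case 2 were higher in place of 1, beside 15.9%. In polyribosome RNA 2 were lower in place of 1 with rescaled libraries (36.7% of all features) and with the trend removed (26.2%), TUBA1B being at -1.01 and -1.00. Centred on the median of all features, 2 were higher and 0 lower, beside 22.8% and 27.0%. For the change in efficiency 1 was lower in place of 0 with the trend removed, beside 17.7%. The median efficiency change was -0.09, and from -0.87 (trend removed) to 0.03 (centred) over the alternatives. Leaving out a library was not possible, and with 1 library per group and no known depth, changes of this size cannot be set against any measured error.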
